A study of Mus musculus with 2 samples.

Results

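The transcripts described here are the 63 genes in the deposited mouse gene list whose symbol is a known gene symbol followed by os (opposite strand) or ot (overlapping transcript) and which had at least 200 unique molecular identifiers (UMIs, the counted RNA molecules) over all nuclei of the library. The gene without the suffix is called the host. The list held 32285 genes, of which 211 had such a name and a host. Of these 211, 9 had no UMI, 139 had at least 1 but under 200, 43 had from 200 to under 1000 and 20 had 1000 or more. The 63 were chosen by their total UMI count, so that count is given only as a description: just inside the limit were Irx3os with 214 UMIs, Foxd2os with 226 and Taco1os with 240, and just outside were Fzd10os with 175, Mypopos with 179 and Zfp85os with 182. The median of the 63 was 532 UMIs, and together they held 0.0767% of all UMIs, so most values rest on small counts.

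The nuclei came from pooled mouse embryos staged at embryonic day 7.0, during gastrulation, dissociated with TrypLE before nuclei were isolated. Each nucleus was profiled by the 10x Genomics multiome assay, which counts nuclear RNA and, in the same nucleus, DNA fragments from open chromatin. There was 1 RNA library and 1 accessibility library, no barcode can be assigned to an embryo, and there was no treatment or second genotype. Because there is no replicate library, no test was run, and every interval below is a 95% interval that covers counting error only. The labels also conflict: title, age and protocol describe the embryo, while the tissue, cell type and strain entries name the small intestine, the distal colon, goblet cells and RedMUC298trTg. Of the goblet and intestinal genes, Muc2 had 21 UMIs, Tff3 11, Agr2 13, Clca1 5, Fcgbp 56, Zg16 50 and Cdx1 204 among 182201512 UMIs. The visceral endoderm markers together reached 4160 CPM (counts scaled to a library total of 1e6), so the nuclei are treated here as embryonic. Vil1, which the intestine and the visceral endoderm share, had 5028 UMIs.

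Genes with the os and ot suffixes are mostly long noncoding RNAs. Many start beside the promoter of a coding gene and run away from it on the other strand, and others lie across the body of the host and are read in the opposite direction. Such RNAs often appear in the same tissues as the host, and some are known to raise or lower the host's transcription, although for most of them no function is known. At gastrulation the hosts include transcription factors that set up the streak, mesoderm and endoderm, such as Evx1, Lhx1, Hnf4a and Sox2.

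The name did not mark a single kind of gene. In the RefSeq table for GRCm38.p6, 55 of the 63 were found: 48 were long noncoding RNAs, 6 were protein-coding (among them Slc7a6os, Wdr83os and Leprot) and 1, Fbxl12os, was a transcribed pseudogene. By strand and gene span, 25 lay on the strand opposite the host with overlapping spans and 18 started head to head with the host without overlap. A further 5 ran tail to tail and 14 could not be placed. Cdr1os is among the 5 by its RefSeq span, although its listed starts lie on both sides of the Cdr1 start. Among the pairs that could be placed, only Leprot, the leptin receptor overlapping transcript, lay on the same strand as its host. Its start lay 69611 bp from that of Lepr. Sox2ot is among the 14 that were not placed. Start distance was measured between the ranges of annotated starts, as 0 where the ranges of member and host overlapped. By this measure 36 pairs lay within 1000 bp and 20 over 10000 bp apart, with a median of 403 bp. For Nr6a1os, Sox2ot, Has2os, Igf2os and Cdr1os the range of 1 gene covers the start of the other. Their distance of 0 therefore does not show that single starts lie near each other. Whether the authors' counting used the strand of the reads is not given in the sources used here, so where spans overlap, RNA of the transcript and RNA of its host cannot be told apart with certainty.

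The promoters of 6 of the transcripts are shown as examples of RNA that was high in the visceral endoderm, the mesoderm, the anterior streak and node, or the epiblast, and were chosen after these values were seen. Each is 250 bases before and 50 bases after the RefSeq start, read 5′ to 3′ on the transcript's own strand in GRCm38.p6, with CCAAT or its reverse complement in capitals. Hnf4aos (chr2:163541672-163541971, minus strand) and Scpep1os (chr11:88905678-88905977, plus strand) were high in visceral endoderm-like nuclei. Evx1os (chr6:52314783-52315082, minus strand) and Lhx1os (chr11:84525410-84525709, plus strand) were high in mesoderm. Lhx1os was about as high in anterior streak, node and definitive endoderm-like nuclei. Gad1os (chr2:70563308-70563607, minus strand) was high in anterior streak and node nuclei, and Wt1os (chr2:105126461-105126760, minus strand) in epiblast.
Hnf4aos: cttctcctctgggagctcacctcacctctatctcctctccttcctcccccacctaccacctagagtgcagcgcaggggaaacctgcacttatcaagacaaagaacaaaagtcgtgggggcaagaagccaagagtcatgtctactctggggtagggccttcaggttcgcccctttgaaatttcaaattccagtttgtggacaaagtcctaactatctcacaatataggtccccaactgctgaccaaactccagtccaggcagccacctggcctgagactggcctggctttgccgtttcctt
Scpep1os: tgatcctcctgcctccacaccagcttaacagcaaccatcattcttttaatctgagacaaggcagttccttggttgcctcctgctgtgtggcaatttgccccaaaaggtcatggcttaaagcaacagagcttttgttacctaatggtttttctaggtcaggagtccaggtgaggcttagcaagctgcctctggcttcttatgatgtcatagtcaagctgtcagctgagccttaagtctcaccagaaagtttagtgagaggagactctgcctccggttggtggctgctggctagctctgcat
Evx1os: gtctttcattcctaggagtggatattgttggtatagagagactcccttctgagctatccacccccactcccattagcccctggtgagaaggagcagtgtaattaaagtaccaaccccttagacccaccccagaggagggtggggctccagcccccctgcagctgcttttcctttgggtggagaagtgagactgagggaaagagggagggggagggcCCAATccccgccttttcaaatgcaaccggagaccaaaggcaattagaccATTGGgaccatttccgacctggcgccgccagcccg
Lhx1os: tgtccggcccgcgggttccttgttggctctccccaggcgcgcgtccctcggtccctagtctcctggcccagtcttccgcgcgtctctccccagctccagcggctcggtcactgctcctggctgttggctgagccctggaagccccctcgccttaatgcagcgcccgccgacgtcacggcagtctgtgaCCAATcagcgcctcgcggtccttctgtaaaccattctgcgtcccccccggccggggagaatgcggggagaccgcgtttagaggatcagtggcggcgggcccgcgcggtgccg
Gad1os: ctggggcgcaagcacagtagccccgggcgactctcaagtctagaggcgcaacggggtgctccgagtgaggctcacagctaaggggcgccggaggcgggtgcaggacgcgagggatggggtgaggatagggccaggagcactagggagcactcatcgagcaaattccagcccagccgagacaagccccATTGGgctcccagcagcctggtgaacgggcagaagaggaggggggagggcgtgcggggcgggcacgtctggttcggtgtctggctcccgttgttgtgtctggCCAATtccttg
Wt1os: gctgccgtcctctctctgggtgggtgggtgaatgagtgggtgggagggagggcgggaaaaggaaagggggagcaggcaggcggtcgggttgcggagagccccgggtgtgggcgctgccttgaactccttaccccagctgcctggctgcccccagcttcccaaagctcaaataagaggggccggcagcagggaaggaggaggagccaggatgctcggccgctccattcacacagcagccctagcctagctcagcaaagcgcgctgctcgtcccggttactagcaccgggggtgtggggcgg
The promoters differed in CpG content, the dinucleotide that is concentrated in CpG islands. Hnf4aos had 4 CpGs in 300 bases, Scpep1os 1 and Evx1os 6, against 33 in Lhx1os, 20 in Gad1os and 16 in Wt1os. Over the 42 members with a listed promoter the median was 16.5, with a range of 0 to 46, against 20 for the promoters of 11172 genes with at least 200 UMIs and 7 for all 27025 listed promoters. 4 motifs were searched on both strands: the TATA box as TATAAA, the CCAAT box as those letters, an HNF4 site as CAAAGTCCA and a T-box site as TCACACCT. CCAAT was in 15 of the 42 member promoters (35.7%) and in 37.9% of all promoters. TATAAA was in 2 of the 42 (4.76%), against 14.2% of all promoters and 6.81% of those of genes with at least 200 UMIs. The HNF4 and T-box letters were in 0 of the 42, and in 0.477% and 1.27% of all promoters.

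After limits on depth and removal of 1153 doublet calls, 12796 of 15341 nuclei were kept (83.4%), with a median of 10471 UMIs and 17350 peak counts. Clusters were made from the accessibility counts alone, so the RNA of the transcripts and hosts did not define them, and were named from marker genes that are neither members nor hosts. 9 classes of at least 100 nuclei were named: epiblast-like (3473 nuclei), visceral endoderm-like (2038), embryonic mesoderm-like (1658), extraembryonic ectoderm-like (1435), primitive streak-like (1134), anterior streak, node and definitive endoderm-like (1006), haemato-endothelial progenitor-like (369), extraembryonic mesoderm-like (264) and ectoplacental cone and giant cell-like (185; ectoplacental cone-like below). Unnamed clusters held 1202 nuclei (9.39%), among them 496 nuclei led by Sfrp5, Fzd5 and Gckr and 533 nuclei with a median of 1795 UMIs. The epiblast is the embryonic ectoderm that feeds the streak, the visceral endoderm is the absorptive layer around the embryo, and the extraembryonic ectoderm and ectoplacental cone are trophoblast.

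Of the 63 transcripts, 38 (60.3%) were at least 2-fold higher or lower in 1 or more classes than in all other nuclei, with at least 20 UMIs expected in the class. Over the 14871 genes with at least 200 UMIs the share was 48.5%. Higher in some class were 27 of 63 (42.9%, against 34.8% of genes), and lower were 36 (57.1%, against 43.3%). Of the hosts, 60 could be tested, and 32 of them were past 2-fold (53.3%), 26 higher (43.3%) and 29 lower (48.3%). These host shares lay near or somewhat above the 48.5%, 34.8% and 43.3% of all genes. Hoxb3, with 101 UMIs, is among the 32 but would not enter that background. The genes of this background were not matched to the transcripts in level, and the transcripts are rarer than most. The limit of 200 UMIs was set on the total, for transcripts and background genes alike. Some transcripts passed it only with the UMIs of a class where they are high, among them Tmem132cos (embryonic mesoderm) and Wt1os (epiblast). Their part in these shares was not tested. The 25 that were not past 2-fold had folds between 0.540 and 1.96. No nucleus held more than 2.92% of the UMIs of any of the 63.

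In the embryonic mesoderm more of the transcripts were higher, and in the extraembryonic ectoderm more were lower, than over all genes. In embryonic mesoderm-like nuclei 10 of 63 were at least 2-fold higher (15.9%, against 4.89% of genes): Ccdc34os, Etaa1os, Evx1os, Has2os, Hoxb3os, Junos, Lhx1os, N4bp2os, Srrm4os and Tmem132cos. With doublet calls kept this count was 6, beside 3.37% of genes. In that setting the class held 1049 nuclei, and a cluster of 1009 nuclei that scored highest on the embryonic mesoderm markers stayed unnamed. Its nuclei were then counted among all other nuclei, so the doublet calls are not the only difference. Of 59 hosts, 7 were higher in this class (11.9%). In extraembryonic ectoderm-like nuclei 27 of 63 were at least 2-fold lower (42.9%, against 21.9% of genes), and 3 were higher (4.76%, against 6.25%): Igf2os, Irx3os and Plet1os. Of 59 hosts, 16 were lower there (27.1%). In visceral endoderm-like nuclei 6 were higher (9.52%, against 10.8% of genes) and in epiblast-like nuclei 5 (7.94%, against 7.55%), both near the share of all genes. Lower in the visceral endoderm were 16 (25.4%, against 21.1%), in the epiblast 12 (19%, against 11.6%) and in the embryonic mesoderm 6 (9.52%, against 13.6%). The classes with the fewest UMIs could test 20 or 21 transcripts, and 2 were called higher in each of the ectoplacental cone-like (against 4.71% of genes), extraembryonic mesoderm-like (against 3.12%) and haemato-endothelial progenitor-like (against 3.77%) nuclei. In anterior streak, node and definitive endoderm-like nuclei 3 of 49 were higher (6.12%, against 3.77% of genes) and 7 lower (14.3%, against 7.93%). In primitive streak-like nuclei 2 of 53 were higher (against 2% of genes) and 8 lower (15.1%, against 9.34%). Among the classes with the fewest UMIs, 5 of 21 were lower in the haemato-endothelial progenitor-like (23.8%, against 10.5% of genes), 5 of 20 in the ectoplacental cone-like (25%, against 18.1%) and 2 of 20 in the extraembryonic mesoderm-like class (10%, against 9.87%).

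**Figure D1:**
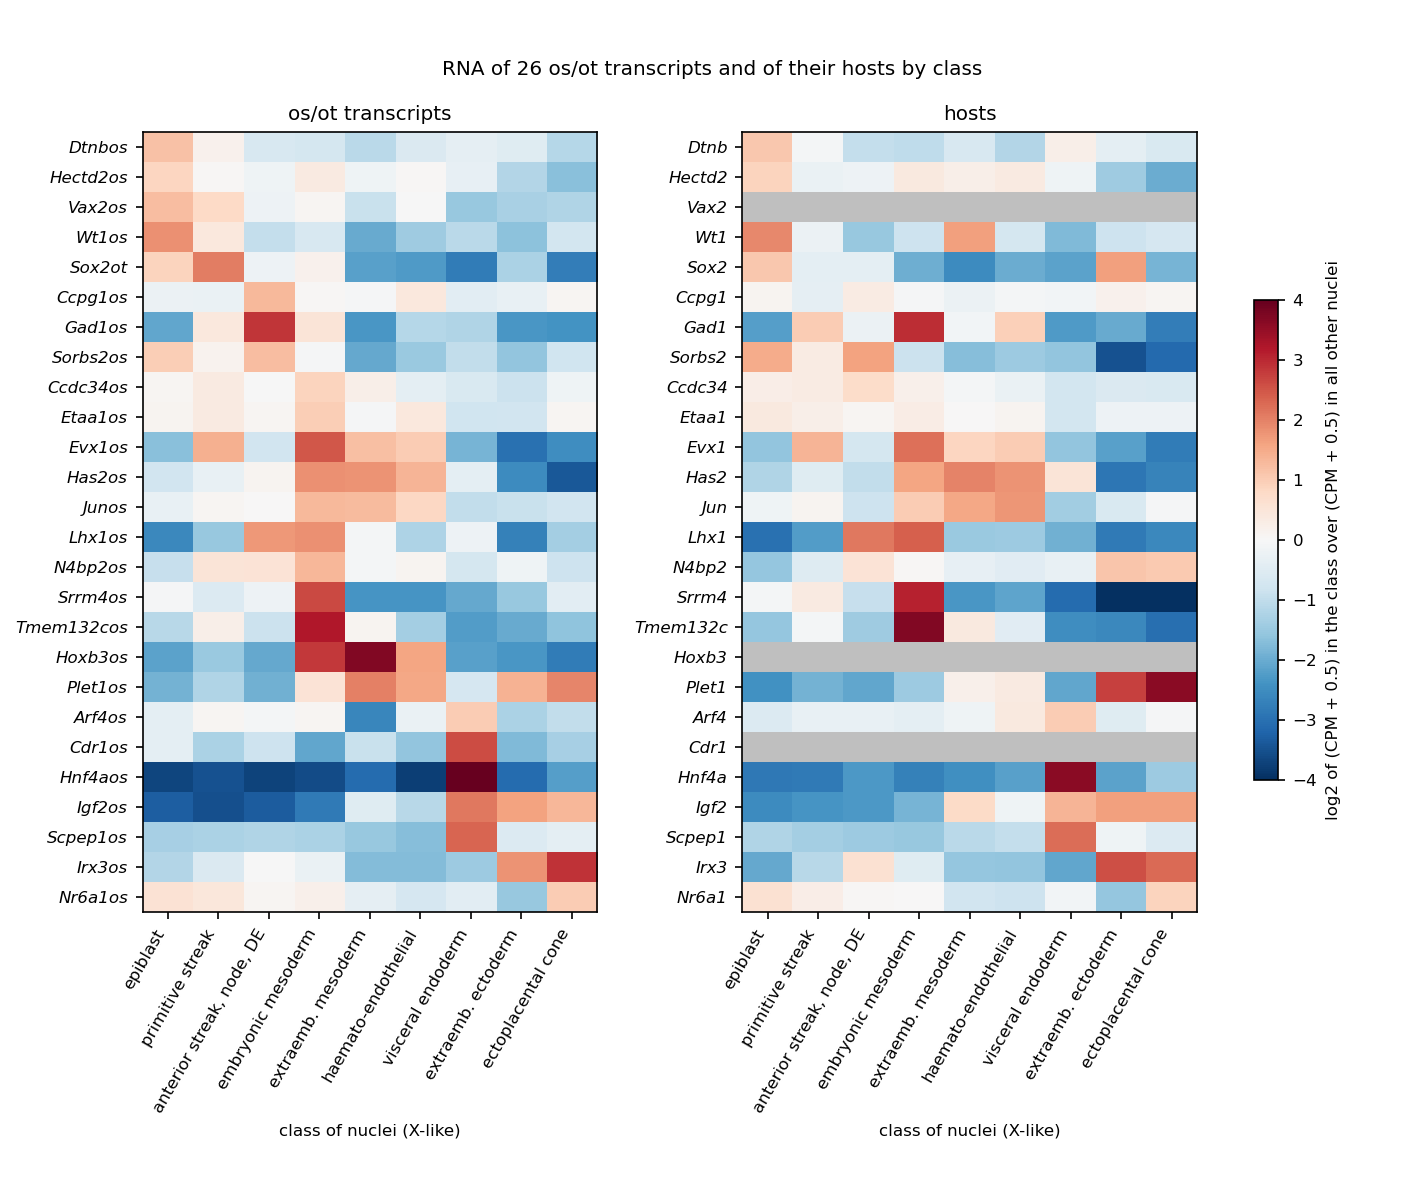
Log2 ratio of CPM in a class to CPM in all other nuclei, with 0.5 CPM added to both, for 26 of the 27 transcripts that were at least 2-fold higher in some class (left) and for their hosts (right). Rows are genes, columns the 9 classes, red is higher and blue lower, and grey marks hosts with under 100 UMIs in the 9 classes. Hnf4aos and Hnf4a are red in the same visceral endoderm column, whereas Gad1os and Gad1 are red in different columns.

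In the visceral endoderm, Hnf4aos showed the highest fold of any of the transcripts in these classes. It overlaps the span of Hnf4a on the other strand, the nuclear receptor that drives liver-type gene expression in this layer. Hnf4aos had 2082 UMIs in visceral endoderm-like nuclei, a level of 74.5 CPM (71.3 to 77.8), and between 0.755 and 3.12 CPM in the other 8 classes. The visceral endoderm thus stood apart from every other class, and 47.1% of its nuclei had a Hnf4aos UMI against 1.12% of epiblast-like nuclei. The fold over all other nuclei was 35.4 (31.0 to 40.5), against 12.9 (11.9 to 13.8) for Hnf4a, which had 103 CPM in the class. The fold of Hnf4aos differed between settings, and the cause was not tested. It was 19.8 with classes from RNA clusters, 14.2 with deeper nuclei only, 13.7 with doublet calls kept and 9.53 at the coarser clustering. In some of these it was not the highest: at the coarser clustering Tmem132cos had 13.5 and Cdr1os 10.2, and with deeper nuclei only Hoxb3os had 16.7 and Tmem132cos 14.8. A cluster of 1083 of the 2038 nuclei also scored on the parietal endoderm markers and kept the visceral endoderm name only under the limit used here. With a limit of 0.5 in place of 0.6 of the score, 955 nuclei kept the name, and the fold was 8.98 for Hnf4aos, below those of Hoxb3os (15.5) and Tmem132cos (14.5), 3.01 for Scpep1os and 2 for Cdr1os. The unnamed nuclei led by Sfrp5 had 12.1 CPM of Hnf4aos and 51.2 CPM of Hnf4a.

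Scpep1os, across the gene of the serine carboxypeptidase Scpep1, had 15.6 CPM (14.1 to 17.1) in visceral endoderm-like nuclei and 1.26 to 3.81 CPM in the other 8 classes, a fold of 5.78 (4.99 to 6.70). Scpep1 itself was 4.82-fold higher there, at 133 CPM, so both moved by a similar factor.

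Cdr1os, the long RNA from which the circular RNA of the Cdr1 locus is made, had 8.66 CPM (7.60 to 9.82) in visceral endoderm-like nuclei and 0.277 to 1.91 CPM in the other classes. The fold was 8.64 (6.91 to 10.9), but 4.26 with doublet calls kept and 3.46 with deeper nuclei only. Its host Cdr1 had 1 UMI in the whole library, so their levels could not be compared. Igf2os, which overlaps the imprinted growth factor gene Igf2, was high in visceral endoderm and trophoblast: 70.4 CPM in visceral endoderm-like, 65.4 CPM in ectoplacental cone-like and 64.0 CPM in extraembryonic ectoderm-like nuclei, against 2.06 CPM in the primitive streak-like and 3.04 CPM in the epiblast-like class. Igf2 was high in the same 3 classes, at 75.4, 116 and 92.7 CPM, and had 64.5 CPM in extraembryonic mesoderm-like nuclei, where Igf2os had 18.6 CPM.

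Among the mesodermal transcripts, Evx1os varied with its host class by class. Evx1 is a homeobox factor of the posterior streak, and Evx1os starts 1280 bp from it on the other strand. Evx1os had 49.6 CPM (46.4 to 53.0) in embryonic mesoderm-like, 32.6 CPM in primitive streak-like, 30.9 CPM in extraembryonic mesoderm-like and 27.2 CPM in haemato-endothelial progenitor-like nuclei. For Evx1 these levels were 47.8, 33.8, 26.5 and 29.2 CPM. Both genes were low in extraembryonic ectoderm-like nuclei, Evx1os at 1.49 CPM and Evx1 at 3.29 CPM. Per kilobase of gene span and over all nuclei, Evx1os had 2.10 CPM and Evx1 3.01. The fold of Evx1os in the embryonic mesoderm was 5.88 (5.38 to 6.43), and that of Evx1 4.75 (4.35 to 5.18).

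Lhx1os starts head to head with Lhx1, a homeobox factor of the organizer and early mesoderm, with starts 134 bp apart. Its level was 27.8 CPM (24.7 to 31.1) in anterior streak, node and definitive endoderm-like and 26.6 CPM (24.2 to 29.0) in embryonic mesoderm-like nuclei, intervals that overlap. Lhx1 led in the same classes, at 906 and 888 CPM. In visceral endoderm-like nuclei Lhx1os had 8.45 CPM, against 1.64 CPM in epiblast-like nuclei, and Lhx1 had 79.8 CPM against 42.0. Has2os, named for the hyaluronan synthase gene Has2, had 40.3 CPM in extraembryonic mesoderm-like, 32.8 CPM in embryonic mesoderm-like and 29.5 CPM in haemato-endothelial progenitor-like nuclei, and the highest level elsewhere was 12.7 CPM. Has2 had 152, 95.6 and 129 CPM in the same 3 classes, which also led for the host.

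Tmem132cos and Srrm4os lie within or across hosts best known from neural tissue, the membrane protein gene Tmem132c and the splicing regulator Srrm4. Tmem132cos had 11.1 CPM (9.64 to 12.8) in embryonic mesoderm-like nuclei, with 2.46 CPM as the highest level of another class, and a fold of 14.5 (11.3 to 18.6). Tmem132c had 63.2 CPM there and a 14.2-fold difference (12.9 to 15.8). Srrm4os had 8.96 CPM in the class, at most 1.96 CPM in any other, and a fold of 8.80 (6.94 to 11.2), against 8.92 (8.26 to 9.63) for Srrm4. With doublet calls kept the folds were 8.56 for Tmem132cos and 4.51 for Srrm4os. The class also changed in that setting, as an unnamed cluster of 1009 nuclei with embryonic mesoderm markers fell among all other nuclei.

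Hoxb3os, in the HoxB cluster, had 35.4 CPM (28.7 to 43.3) in extraembryonic mesoderm-like nuclei, 13.2 CPM (11.6 to 15) in embryonic mesoderm-like and 9.06 CPM in haemato-endothelial progenitor-like nuclei. In each of the other 6 classes it had at most 0.793 CPM. The fold in the extraembryonic mesoderm was 15.5 (12.2 to 19.5) and rests on 95 UMIs in 264 nuclei. Fewer than 20 UMIs were expected in this class, so Hoxb3os is not among the 2 transcripts counted as higher there. In the embryonic mesoderm, where it was counted, its fold was 9.13. Hoxb3 itself had 101 UMIs over all nuclei and is left out of the correlations. In embryonic mesoderm-like nuclei it had 41 UMIs, against 238 of Hoxb3os.

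Gad1os and Gad1 peaked in different classes. Gad1 encodes the enzyme that makes the transmitter GABA, and Gad1os starts 458 bp from it with overlapping spans. Gad1os had 21.2 CPM (18.5 to 24.2) in anterior streak, node and definitive endoderm-like nuclei, 5.37 CPM in embryonic mesoderm-like and 5.16 CPM in primitive streak-like nuclei. Gad1 had 2.35 CPM (1.52 to 3.48) in the first of these and 13.5 CPM (11.9 to 15.3) in the embryonic mesoderm. Thus Gad1os was 8.54-fold higher (7.18 to 10.2) in the anterior class, where Gad1 was 0.824 times the level of all other nuclei (0.527 to 1.24). The unnamed nuclei led by Sfrp5 were a further site of Gad1os, with 10.4 CPM, and had 0.809 CPM of Gad1.

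Sox2ot is a long transcript whose listed starts lie on both sides of the single-exon gene Sox2, a pluripotency and neural factor that trophoblast stem cells also need. Sox2ot was highest in primitive streak-like nuclei at 93.1 CPM (87.9 to 98.6), with 42.9 CPM in epiblast-like, 31.0 CPM in embryonic mesoderm-like and 12.4 CPM in extraembryonic ectoderm-like nuclei. Sox2 had a different order, with 113 CPM (108 to 118) in extraembryonic ectoderm-like, 76.4 CPM in epiblast-like, 35.4 CPM in primitive streak-like and 12.7 CPM in embryonic mesoderm-like nuclei. Sox2ot was therefore 4.23-fold higher (3.95 to 4.53) in the streak, where Sox2 was at 0.753 of the level in all other nuclei.

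Wt1os, 19 bp from the start of the zinc finger gene Wt1, was highest in epiblast-like nuclei with 140 UMIs, 3.76 CPM (3.17 to 4.44), and 5.37-fold higher (4.03 to 7.20) than elsewhere. Wt1 had 4.84 CPM and a 5.36-fold difference in the same nuclei, and 6.71 CPM from 18 UMIs in extraembryonic mesoderm-like nuclei, where Wt1os had no UMI, which allows up to 1.12 CPM. The other transcripts at least 2-fold higher in the epiblast were Dtnbos (5.24 CPM), Vax2os (7.01 CPM), Hectd2os (3.49 CPM) and Sorbs2os (2.74 CPM), each between 2 and 3 times the level of all other nuclei. Of these, Vax2os had 6.50 CPM in primitive streak-like nuclei, and Sorbs2os was highest in anterior streak, node and definitive endoderm-like nuclei at 3.86 CPM, from 41 UMIs. Vax2 had 28 UMIs in all and is left out of the correlations.

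Of the 12 transcripts with the most UMIs, 3 passed 2-fold in a class, Sox2ot, Igf2os and Nr6a1os, beside 48.5% of all genes with at least 200 UMIs, which were not matched in level. Brip1os, head to head with the DNA helicase gene Brip1, had the most: 95.4 to 141 CPM over the 9 classes, and its folds ran from 0.797 to 1.25. Epb41l4aos ranged from 81.5 to 121 CPM, Slc7a6os from 40.0 to 77.8, Man2c1os from 38.6 to 58.1, Wdr83os from 32.8 to 55.7, Zfp335os from 26.9 to 56.7, Rab26os from 22 to 34.3, Far1os from 16.6 to 31.2 and Rab10os from 15.9 to 26.7 CPM. Nr6a1os followed its host, the nuclear receptor gene Nr6a1: Nr6a1os had 78.2 CPM in ectoplacental cone-like and 15 CPM in extraembryonic ectoderm-like nuclei, and Nr6a1 1152 and 237 CPM.

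Levels of different genes are given here per kilobase of gene span and undivided, and which suits UMI counts better was not tested. Dividing by span gives a long gene a lower value even where the UMI counts are alike. Per kilobase of gene span, 17 of the 55 pairs with both spans had the transcript above the host, and over all nuclei 13 of 63 transcripts had more UMIs than the host. Epb41l4aos, a gene of 1.10 kb, had 83.5 CPM per kb against 0.357 for the 211 kb Epb41l4a, but 91.6 against 75.3 CPM undivided. Brip1os had 1.13 CPM per kb against 0.569 for Brip1, and 116.5 against 81.4 CPM undivided. Sox2ot had 0.240 CPM per kb against 18.7 for Sox2, and 28.2 against 46 CPM undivided. The RefSeq span of 117.6 kb used for Sox2ot is shorter than the range of its listed starts (34196751 to 34665243). The same holds for Has2os, which is among the 17, and for Cdr1os. For these transcripts the length used does not cover the gene as counted. In nuclear RNA, introns contribute to the count, so a long span does not lower every gene's value alike.

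Over 20 accessibility clusters of at least 100 nuclei, transcript and host had higher coefficients than genes that neighbour each other on a chromosome. For the 59 pairs in which both genes had at least 200 UMIs, the median Pearson coefficient of log2(CPM + 1) was 0.52 (quartiles 0.24 and 0.82) and the median Spearman coefficient 0.41. For 14834 next-neighbour pairs the medians were 0.20 and 0.18. A coefficient of 0.5 or more was reached by 30 pairs (50.8%, against 25.5% of neighbours), and 9 pairs were below 0 (15.3%, against 34.5%). The class of highest level was the same in 22 of the 59 pairs (37.3%, against 20.6%). Of the 25 pairs with at least 500 UMIs each, 9 had the same leading class. The clusters share 1 library and are not replicates, so these coefficients are descriptions. The 20 include the unnamed cluster of 533 nuclei with a median of 1795 UMIs, and its weight in the coefficients was not tested.

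**Figure D2:**
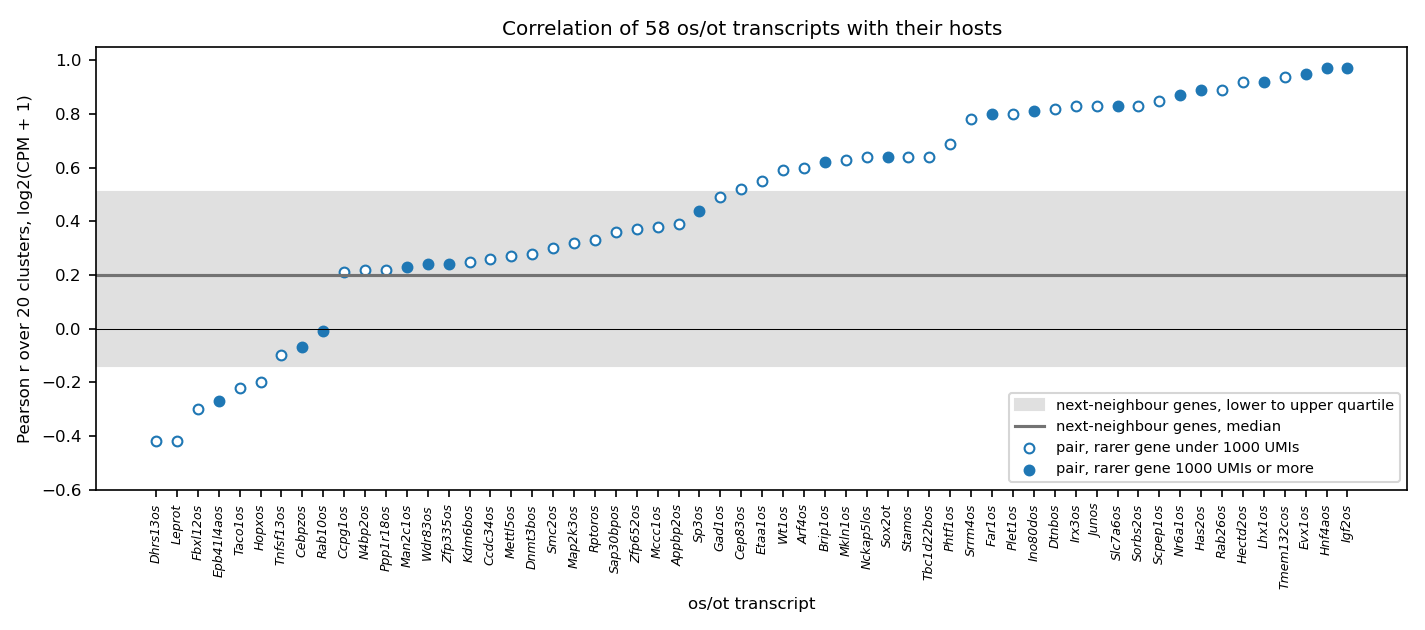
Pearson coefficient of 58 of the 59 transcripts with their hosts over 20 clusters, in rising order. The grey band spans the quartiles of next-neighbour genes (-0.14 to 0.51) and the grey line is their median of 0.20. Filled points are pairs whose rarer gene had at least 1000 UMIs in kept nuclei, and they lie at both ends of the order, from Epb41l4aos at -0.27 to Igf2os at 0.97.

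The median Pearson coefficient was higher where counts were higher. It was 0.72 over 18 pairs whose rarer gene had at least 1000 UMIs and 0.39 over 41 pairs below that. Neighbouring genes had Pearson medians of 0.19 and 0.21 at these depths. The Spearman medians of the 18 and the 41 lay nearer each other, at 0.55 and 0.39. Their lower quartiles of the Pearson coefficient were alike (0.24 and 0.25), and 16.7% and 14.6% were below 0. The leading class was shared in 33.3% and 39% of them. Pairs with near start ranges did not have the higher median. It was 0.44 for 33 pairs with ranges within 1000 bp (neighbours 0.32) and 0.71 for 26 pairs further apart (neighbours 0.19). At the low end the order was the other way, with lower quartiles of 0.24 and 0.07, and 9.09% and 23.1% of pairs below 0. The Spearman medians of these near and far pairs were 0.33 and 0.64. The 33 include Igf2os, Has2os, Nr6a1os and Sox2ot, which count as near only because the ranges overlap. The 24 pairs with overlapping spans on opposite strands had a median Pearson coefficient of 0.66 and a median Spearman coefficient of 0.61. For the 17 head-to-head pairs without overlap these medians were 0.52 and 0.33. Reads that cannot be assigned to 1 strand would fall on overlapping pairs, and their part in these values was not tested.

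Among the 25 pairs with at least 500 UMIs in both genes, the highest coefficients were those of Hnf4aos (0.97), Igf2os (0.97), Evx1os (0.95), Lhx1os (0.92) and Has2os (0.89). For Hnf4aos the Spearman coefficient was 0.69, and most clusters outside the visceral endoderm had little of either gene. The lowest were Man2c1os (0.23), Ccpg1os (0.21), Rab10os (-0.01), Cebpzos (-0.07) and Epb41l4aos (-0.27). The coefficient of Man2c1os was -0.22 with RNA clusters in place of accessibility clusters. Ccpg1os, a protein-coding gene head to head with the autophagy receptor gene Ccpg1, had 9.98 CPM (8.17 to 12.1) in anterior streak, node and definitive endoderm-like nuclei and at most 5.79 CPM elsewhere, while Ccpg1 was also highest there, at 9.32 CPM, with 5.79 CPM in its lowest class. Cebpzos, a small protein-coding gene, and its host Cebpz, a ribosome biogenesis factor, parted in the visceral endoderm, where Cebpzos had 1.18 times and Cebpz 0.614 times the level of all other nuclei. Rab10os had 26.7 CPM in visceral endoderm-like nuclei, 1.51-fold higher, and Rab10 there was at 0.948 of the level elsewhere.

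**Figure D3:**
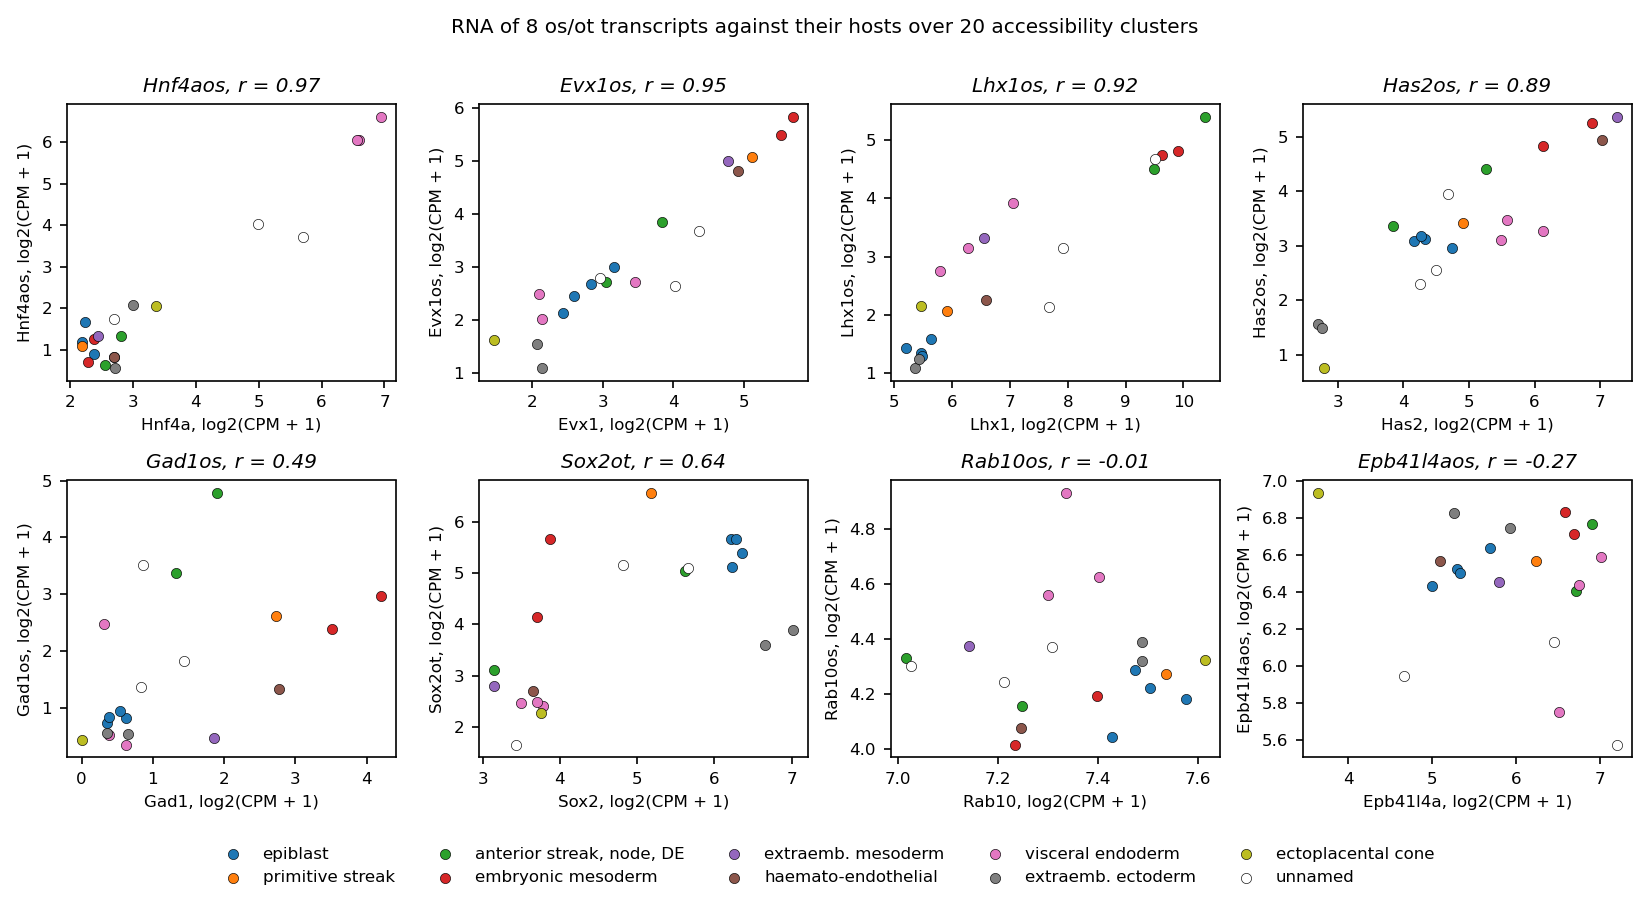
Level of 8 transcripts (y axis) against their hosts (x axis) as log2(CPM + 1), with 1 point per accessibility cluster coloured by class and white points for unnamed clusters. The points of Hnf4aos, Evx1os, Lhx1os and Has2os rise with the host (r of 0.89 to 0.97), those of Gad1os (0.49) and Sox2ot (0.64) split by class, and those of Rab10os (-0.01) and Epb41l4aos (-0.27) do not rise.

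The share of a pair's UMIs that came from the transcript showed how far the ratio was kept. In 61 pairs, 3 of them with a host under 200 UMIs, at least 2 classes had 50 or more UMIs of both genes together. The intervals of the highest and the lowest class did not overlap in 41 of these (67.2%, against 88.4% of 14810 next-neighbour pairs). In 12 the odds also differed at least 4-fold (19.7%, against 53.5%), with 3 counts taken in place of 0. The neighbouring genes were not matched in level, and rarer genes have wider intervals. With classes from RNA clusters the count of 12 was 20. Sox2ot gave 72.5% (70.2 to 74.6) of the UMIs of its pair in primitive streak-like nuclei, 70.9% in embryonic mesoderm-like, 35.9% in epiblast-like and 9.86% (8.70 to 11.1) in extraembryonic ectoderm-like nuclei. Gad1os gave 90% (85.6 to 93.4) in the anterior streak, node and definitive endoderm-like class and 28.5% (23.7 to 33.6) in the embryonic mesoderm-like class. Hnf4aos gave 41.9% (40.6 to 43.3) in visceral endoderm-like nuclei and 13.9% (6.53 to 24.7) in anterior streak, node and definitive endoderm-like nuclei.

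In others of the 12 the host differed more between classes than the transcript. Epb41l4aos gave 91.4% (88.1 to 94.0) of the pair's UMIs in the ectoplacental cone-like class and 41.6% (40.3 to 43.0) in visceral endoderm-like nuclei, and Epb41l4a, a cytoskeletal linker gene, had 11.4 and 114 CPM there. Tnfsf13os gave 87.9% in the primitive streak-like and 29.2% in the visceral endoderm-like class, where the cytokine gene Tnfsf13 was 7.51-fold higher than in all other nuclei. Hopxos gave 70.0% in embryonic mesoderm-like and 30.8% in visceral endoderm-like nuclei. Plet1os, opposite the trophoblast surface protein gene Plet1, gave 26.1% in extraembryonic mesoderm-like and 3.68% in ectoplacental cone-like nuclei, with Plet1 at 32.8 and 290 CPM. The 12 also held the pairs of Leprot, Fbxl12os, Ppp1r18os and N4bp2os.

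**Figure D4:**
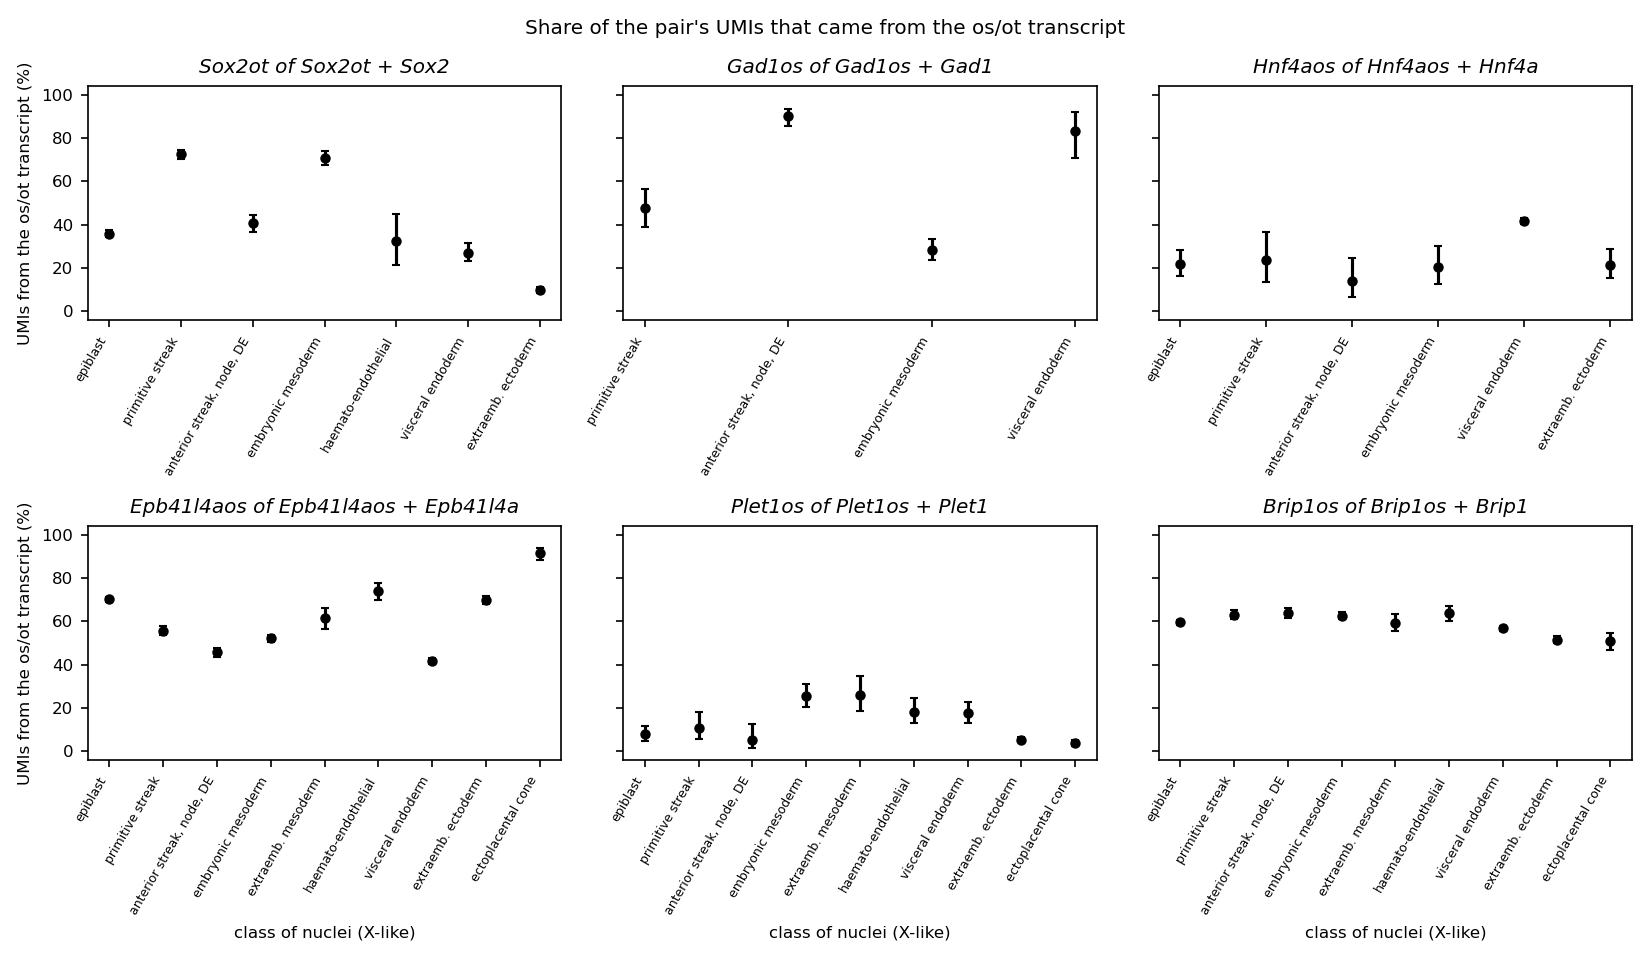
Percent of the UMIs of transcript and host together that came from the transcript (y axis, 0 to 100%) in each class with at least 50 UMIs of both, with exact binomial 95% intervals, for 6 pairs. Brip1os stays between 50.7% and 64.0%, while Sox2ot runs from 9.86% to 72.5% and Plet1os from 3.68% to 26.1%.

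Accessibility at the starts was compared in classes from RNA clusters made without the 63 transcripts and their hosts, as peak counts in a window of 1000 bp to each side of the annotated starts. These classes differ somewhat from those above, with 1808 visceral endoderm-like and 3910 epiblast-like nuclei and no extraembryonic mesoderm-like class. A peak lay in the window of 61 transcripts, all but Tmem132cos and Sap30bpos, and of 62 hosts. In 32 of the pairs transcript and host shared a peak, so their accessibility cannot be separated. The class of highest accessibility was also that of highest RNA for 12 of 61 transcripts (19.7%), against 26.4% of 14130 genes. Of 23 transcripts at least 2-fold higher in a class, 17 (73.9%) were more accessible there than in all other nuclei, against 83.4% of 5005 genes. The class taken was that of the highest RNA fold among classes with at least 20 UMIs expected. For rarer transcripts it need not be the class of highest level. The median log2 difference in accessibility was 0.33 for the transcripts and 0.35 for those genes.

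For Hnf4aos and Scpep1os, accessibility at the start and RNA were higher in the visceral endoderm by similar factors. The Hnf4aos start was 18.2-fold more accessible in visceral endoderm-like nuclei (16.4 to 20.1) beside a 19.8-fold difference in RNA, and the Hnf4a starts 7.74-fold (6.76 to 8.86) beside 11.2-fold. The Scpep1os start was 5.23-fold more accessible (4.65 to 5.89), the same as its 5.27-fold difference in RNA, and the Scpep1 start 2.27-fold.

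In the epiblast, Dtnbos was 3.36-fold more accessible (2.28 to 5.01) and 2.25-fold higher in RNA, and Sorbs2os 2.58-fold (1.70 to 3.94) and 2.22-fold. For other transcripts the accessibility at the start differed less than the RNA, or not in the same direction. Evx1os, Lhx1os, Gad1os and Wt1os are among the pairs whose peaks at the transcript's start are all shared with the host, so their values are those of both genes. Evx1os was 2.19-fold more accessible and 5.19-fold higher in RNA in embryonic mesoderm-like nuclei, and Lhx1os 1.22-fold and 4.08-fold in the anterior class. The Gad1os start was 1.04 times as accessible (0.826 to 1.29) in anterior streak, node and definitive endoderm-like nuclei, where its RNA was 9.23-fold higher. It was most accessible in epiblast-like nuclei, 2.47-fold (2.2 to 2.76), where Gad1os RNA was at 0.196 of the level elsewhere. The Wt1os start was 1.98-fold more accessible in the epiblast with 5.68-fold RNA. Hoxb3os had 1.07-fold accessibility in haemato-endothelial progenitor-like nuclei, its leading class here with 11.4-fold RNA; that cluster of 668 nuclei also scored on the extraembryonic mesoderm markers, for which the RNA clusters gave no class. Srrm4os had 0.821-fold accessibility in embryonic mesoderm-like, Plet1os 0.526-fold in extraembryonic ectoderm-like and Cdr1os 0.289-fold in visceral endoderm-like nuclei. These are their classes of highest RNA fold among those with enough UMIs expected. By level in the accessibility clusters, Plet1os led in the extraembryonic mesoderm-like and Irx3os in the ectoplacental cone-like class, not in the extraembryonic ectoderm.

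**Figure D5:**
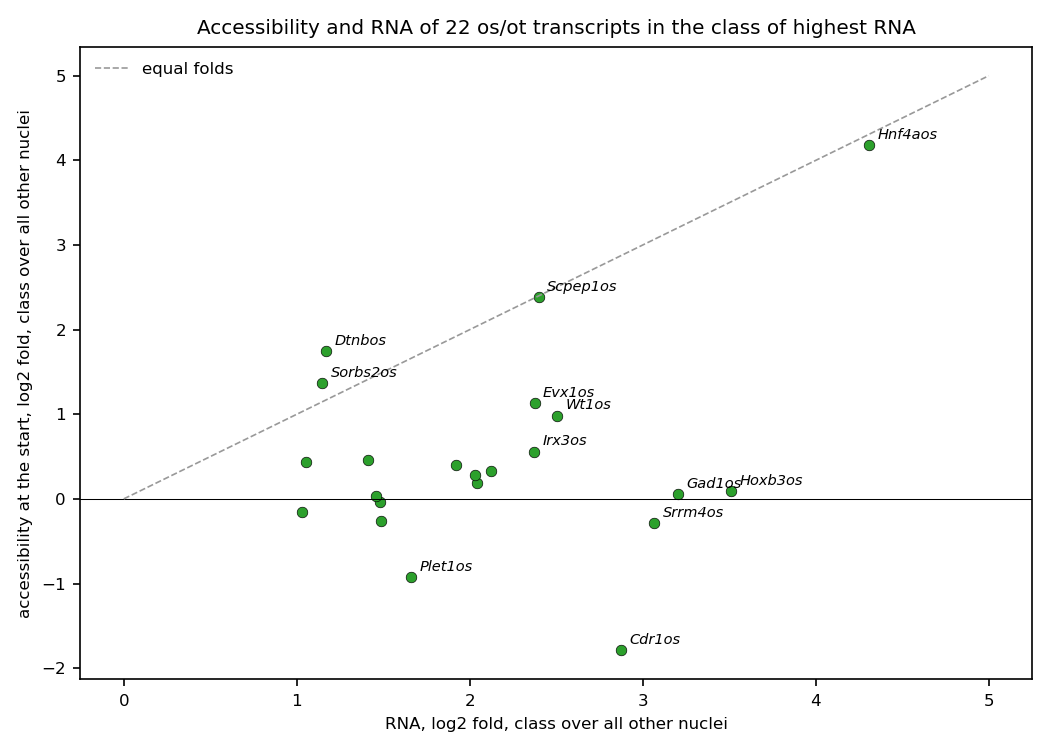
Log2 fold of accessibility at the start (y axis) against log2 fold of RNA (x axis), each in the RNA class of highest RNA over all other nuclei, for 22 of the 23 transcripts at least 2-fold higher with a peak at the start. Hnf4aos and Scpep1os lie near the dashed line of equal folds, Gad1os and Hoxb3os near 0 on the y axis, and Cdr1os is lowest with 0.289-fold accessibility.

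In single nuclei, UMIs of transcript and host were compared within the leading class of the transcript after thinning each nucleus to 5000 UMIs, which left out 1609 nuclei and kept 11187. In 37 pairs at least 20 nuclei had and 20 lacked the transcript. The host was found more often in nuclei with the transcript in 26 pairs (70.3%, against 57.2% of 11015 next-neighbour pairs with the rarer gene in the place of the transcript). The intervals did not overlap in 7 pairs (18.9%, against 3.23%), and none were apart in the other direction. Where the rarer gene had under 1000 UMIs, the intervals did not overlap in 5 of 20 pairs (25%, against 4.22%). Tmem132c had a UMI in 54.6% (41.8 to 66.9) of 66 embryonic mesoderm-like nuclei with Tmem132cos and in 17.9% (16.0 to 20) of 1445 without. Srrm4 had one in 57.1% of 56 nuclei with Srrm4os and 26.1% of 1455 without, and Evx1 in 32.5% of 305 nuclei with Evx1os and 17.3% of 1206 without. Lhx1 had a UMI in 95.2% of 103 anterior streak, node and definitive endoderm-like nuclei with Lhx1os and 72.6% of 842 without. The others were Dtnbos, Hectd2os and Ccdc34os. The embryonic mesoderm-like class pooled clusters of 881 and 777 nuclei, and Tmem132c was among the 10 leading genes of the second only. How far such differences between pooled clusters enter these shares was not tested. Without thinning, where deeper nuclei have more of every gene, 22 of 45 pairs were apart. The share of next-neighbour pairs was not computed without thinning, so this count has no background. Free RNA can add UMIs to nuclei that do not express a gene, and its part in these shares was not tested. Before thinning, Tmem132c had a UMI in 1.87% of visceral endoderm-like nuclei (median 12226 UMIs). In embryonic mesoderm-like nuclei (median 10462 UMIs) it had one in 31.5%.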

How the data were processed

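The authors deposited raw UMI counts per gene and raw counts per peak, which the matrix header credits to cellranger-arc 2.0.0 and the submitters' processing notes to Cell Ranger ARC 2.0.0 with mm10. Further barcode filtering, and whether counting used strand, are not given in the sources used here. Both libraries share 15341 barcodes, with 182201512 UMIs over 32285 genes and 273131304 peak counts over 229480 peaks.

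A nucleus was kept if it had 1000 or more UMIs, 500 or more genes, 1000 or more peak counts and no more than 20% of UMIs from mitochondrial genes, and Scrublet calls (scanpy 1.11.5) at an expected rate of 0.1, 7.52% of barcodes, were removed. The accessibility matrix was reduced to 30 components and clustered with leidenalg 0.10.2 at resolution 1. RNA clusters used 2000 variable genes without the transcripts and hosts. A cluster was named from the marker list with the highest mean log2 ratio to other nuclei (its score) if that was 0.5 or more, at least 3 markers were raised 1.5-fold and no other list had more markers among the 10 leading genes. It stayed unnamed if another list with 3 raised markers passed 0.6 of the score with at least as many markers among the 10 leading genes, or if it was shallow with none. This rule was set after the data were seen, and a limit of 0.5 would have left a visceral endoderm-like cluster unnamed. Dnmt3b, Evx1, Hnf4a and Lhx1 were left out as hosts. The transcripts, lists and tests were chosen with earlier results of these data known.

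CPM are summed counts per class over the class total, with exact Poisson intervals, conditional binomial intervals for folds and exact binomial intervals for shares, at 95%. Intervals of accessibility folds use peak counts divided by 2 and rounded up, as 86.4% of non-zero peak values were even. The fold and correlation scripts were tested on simulated data. Named with values are the 12 transcripts with the most UMIs, the 10 with the highest fold among those with 50 UMIs in the class, the 5 highest and 5 lowest correlations among pairs with 500 UMIs each, and the 3 on each side of the 200 UMI limit. Of these, 1 transcript is not reported here, though it is counted in the totals. Other genes, and the promoters shown, were chosen after their values were seen. Strand came from the RefSeq promoter table or from starts within 1000 bp of 1 end of the span. Alternatives were a naming limit of 0.5, added after the data were seen, RNA clusters, resolution 0.5, doublet calls kept, 2000 UMIs and peak counts, no minimum of expected UMIs, a pseudocount of 10, a window of 2000 bp, and thinning to 3000 UMIs or none.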

Additional observations from a re-analysis of the deposited data

How the results depend on the processing

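Of 38 recomputed counts and medians, 34 were within 1.5 times of the reported count or within 0.1 of the reported coefficient. The exceptions were the pairs with the same leading class, 9 of the 25 in which both genes had 500 UMIs, a share near that of 22 of 59, the pairs whose odds differed 4-fold, 20 with RNA clusters, the transcripts higher in embryonic mesoderm-like nuclei, 6 with doublet calls kept, and the pairs found together in nuclei, 22 without thinning. The median coefficient lay between 0.49 and 0.61, and the transcripts past 2-fold between 31 and 44. Of 97 recomputed folds and coefficients of named transcripts, 69 kept their value within the interval or within 0.1, 27 moved and 1 changed sign from a coefficient beyond 0.1, that of Man2c1os at -0.22 with RNA clusters. Coefficients nearer 0 also crossed it: Cebpzos had 0.04 to 0.05 under 3 alternatives and Rab10os 0.02 to 0.04 under 2. Most folds that moved were those of visceral endoderm-like nuclei, and the cause was not tested. No extraembryonic mesoderm-like class was found with RNA clusters, at resolution 0.5 or with doublet calls kept, so the fold of Hoxb3os has no value there. Depth limits the rarer transcripts: 43 of the 63 had under 1000 UMIs. No paired analysis was possible because each assay has 1 library.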

Other observations

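Related transcripts with a numbered suffix (os, ot or as followed by a digit) fall outside the 63. 26 such genes had at least 200 UMIs, of which 12 were at least 2-fold higher and 19 at least 2-fold lower in some class (46.2% and 73.1%, against 34.8% and 43.3% of all genes with at least 200 UMIs). The most abundant were Kcnq1ot1 with 76056 UMIs, Gnasas1 with 24458, Oip5os1 with 19537, Otx2os1 with 9724 and Vipas39 with 5469, the last of which is a coding gene whose name only resembles the pattern. Kcnq1ot1, the paternal transcript of the Kcnq1 imprinted domain, was highest in visceral endoderm-like nuclei at 625 CPM, against 362 CPM in all other nuclei. Otx2os1 was highest in anterior streak, node and definitive endoderm-like nuclei at 138 CPM, 2.95-fold above all other nuclei. Chosen after its value was seen, Hnf1aos1 was 19.6-fold higher in visceral endoderm-like nuclei.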
